A study of Capra hircus with 20 samples.

Results

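Expression of 9 genes of the pericellular matrix was examined in goat cells isolated as preadipocytes, before and after induction. They encode the matricellular proteins TGFBI, POSTN (periostin), SPP1 (osteopontin), THBS1, THBS2 and THBS4 (thrombospondins), TNC (tenascin C) and SPARC, and the matrix scaffold FN1 (fibronectin). They were chosen by name with earlier results of these data known, so their counts and medians beside those of all genes only describe them. All 9 were found among the 20587 gene symbols of the mRNA table, each under the symbol that the goat gene table of RefSeq (assembly ARS1.2) gives for its gene ID. The cells came from 5 male Jianzhou Daer goats, 7 days old, and were used at passage 3. Intramuscular preadipocytes (IMPA) were isolated from the longissimus dorsi, the long muscle of the back, and subcutaneous preadipocytes (SPA) from the fat under the skin. Both were kept in DMEM/F12 with 10% fetal bovine serum and collected at day 0, or after 3 days with oleic acid in that medium, as intramuscular adipocytes (IMA) and subcutaneous adipocytes (SA). All 4 groups carried the serum, none was genetically altered, and each had 5 libraries. No group was kept for 3 days without oleic acid. Changes with induction therefore hold both the acid and the added time in culture, which cannot be told apart.

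Matricellular proteins are secreted into the space around cells, where they bind integrins, other receptors, growth factors and collagen without forming the load-bearing fibres themselves. Most are abundant in development and repair and less so in resting adult tissue. In adipose tissue they accompany the remodelling of the matrix as preadipocytes take on their round, lipid-storing form, and several, SPARC, THBS1 and osteopontin among them, are known from studies of obesity and fat fibrosis.

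The deposited values were FPKM (fragments per kilobase of transcript, relative to the mapped fragments of the library) of single transcripts, which account for the length of a transcript, so levels can be compared between genes. The transcripts of a gene were summed. Differences between groups were tested in limma on log2(FPKM + 1), a scale that understates the change of low genes, for the 11432 genes that averaged at least 1 FPKM across all libraries, and a gene was called when its p adjusted over all of these by the Benjamini-Hochberg method was below 0.05. Differences are given in units of this log2 scale, the first group named minus the second. All 9 genes passed this filter, THBS4 through the intramuscular groups alone and among these through IMA, and TNC had a mean below 1 FPKM in SPA. The files held no counts, which leaves the depth behind each value unknown, and the p values measure only the spread between the libraries of a group. The study reported a larger share of uniquely mapped reads and a higher GC content in every IMPA library than in any library of the other groups. The part of this in the differences was not tested. The sum of all mRNA values of a library lay between 373889 and 413880 FPKM.

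The labelled cell types were checked against their markers. The labels are kept as names, although adipocyte markers were low in every group and muscle markers were abundant in the intramuscular ones. Of 8 adipocyte markers 7 were matched, with a summed level of 7.19 to 12.1 FPKM in the 20 libraries. Most of it came from the transcription factor CEBPA, with group means of 3.91 to 9.23 FPKM, and in the subcutaneous groups also from the lipid droplet protein CIDEC, at 4.65 FPKM in SPA and 4.35 in SA against 0.334 in IMPA and 0.318 in IMA. The group means were 0.364 to 1.03 FPKM for PPARG, 0.549 to 1.34 for LPL, 0.197 to 0.419 for ADIPOQ, 0.128 to 0.276 for PLIN1 and at most 0.154 for LEP. With induction CEBPA fell in both cell types, with differences of -0.68 and -0.31 log2 units, and CIDEC was called in neither. All 13 matched skeletal muscle markers were present in the intramuscular groups, where their summed level was 3475 to 3982 FPKM in IMPA and 12570 to 13340 FPKM in IMA, with 12 of them higher and 1 lower in IMA. In the subcutaneous groups the same sum was 6.85 to 24.4 FPKM in SPA, the highest of these in SPA 1, and 7.48 to 9.47 FPKM in SA, and MYOD1 was listed at 0 in all 5 SPA libraries. Of the 5 SA libraries, numbers 2 and 3 stood apart in several of the genes described here, so subcutaneous differences are also given without them, a check added once these values had been seen.

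**Figure D1:**
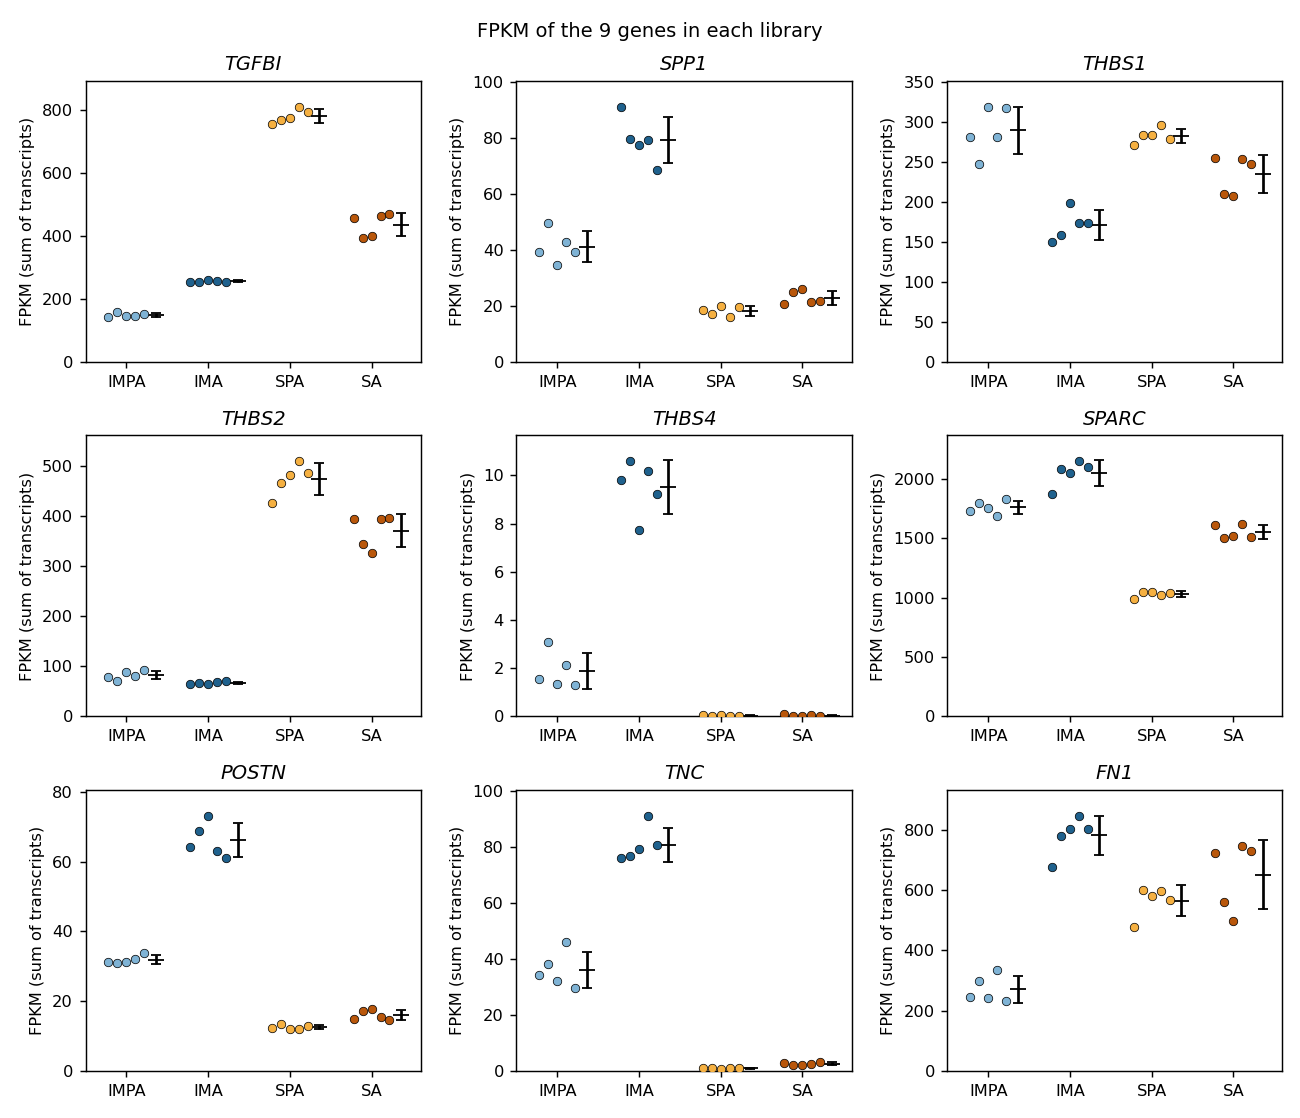
FPKM of the 9 genes (vertical axes, linear, starting at 0, with a scale of their own in each panel) in the 20 libraries, grouped as IMPA, IMA, SPA and SA. Each point is 1 library and the bars are the mean and SD of 5; TGFBI and THBS2 were highest in SPA, TNC and THBS4 were near 0 in both subcutaneous groups, and SPARC ranged from 992 to 2152 FPKM.

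The comparison of IMA with IMPA asks what changed in intramuscular cells with induction, that is, with oleic acid and the added days in culture together. All 9 genes were called, 7 of them higher (TGFBI, SPP1, THBS4, SPARC, POSTN, TNC and FN1) and 2 lower (THBS1 and THBS2), and the 5 IMA values of each lay entirely above or below the 5 IMPA values. THBS4 is counted here, though it passed the filter through IMA, which favoured a rise. Of all genes tested, 19.9% were called higher and 40.2% lower, and the 2 groups did not overlap for 43.5%. The median log2 difference of the 9 genes was 0.93, against -0.085 for all genes tested. The muscle markers moved with this comparison, as given above, 4 of 8 proliferation markers were called lower and none higher, and in bulk libraries fewer cells of a type and less RNA per cell cannot be told apart. Their part in the result was not tested.

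In subcutaneous cells, SA compared with SPA, 7 of the 9 genes were called, 4 higher (SPP1, SPARC, POSTN and TNC) and 3 lower (TGFBI, THBS1 and THBS2), and it was these 7 whose groups did not overlap. Of all genes tested, 26.1% were called higher and 26% lower, and 38.8% did not overlap. When each library was scaled to its mRNA total, 2327 genes were called higher and 4052 lower, in place of 2982 and 2975. The median log2 difference of the 9 genes was 0.19, against -0.0091 for all. Without SA 2 and SA 3, 8 of the 9 genes were called, those 7 and FN1, with differences of -0.26 for THBS2, 0.62 for SPARC, 0.24 for POSTN and 1.00 for TNC. The call of FN1 there is no evidence of a rise, since SA 2 and SA 3 held its lowest SA values. The summed level of 8 proliferation markers was 48.6 to 56.4 FPKM in SPA and 257 to 289 FPKM in SA, with all 8 called higher. That of 8 stromal fibroblast markers was 11440 to 12130 FPKM in SPA and 9261 to 9962 FPKM in SA, with 6 called lower and 1 higher and a median log2 difference of -0.39. The part of either list in the result was not tested.

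Whether the 2 cell types changed by different amounts was tested with the interaction, the IMA minus IMPA difference less the SA minus SPA difference, over the 20 libraries. It was called for 7 of the 9 genes, positive for TGFBI, SPP1, THBS4, POSTN and FN1 and negative for THBS1 and SPARC. THBS4 is counted, though passing the filter through IMA favoured a positive sign. Of all genes tested, 20.7% had a positive and 34.6% a negative interaction, 2368 and 3951 genes, which became 3027 and 3221 with quantile normalization. The median interaction was 0.62 for the 9 genes and -0.075 for all. TGFBI was the one gene of the 9 called in opposite directions in the 2 cell types.

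**Figure D2:**
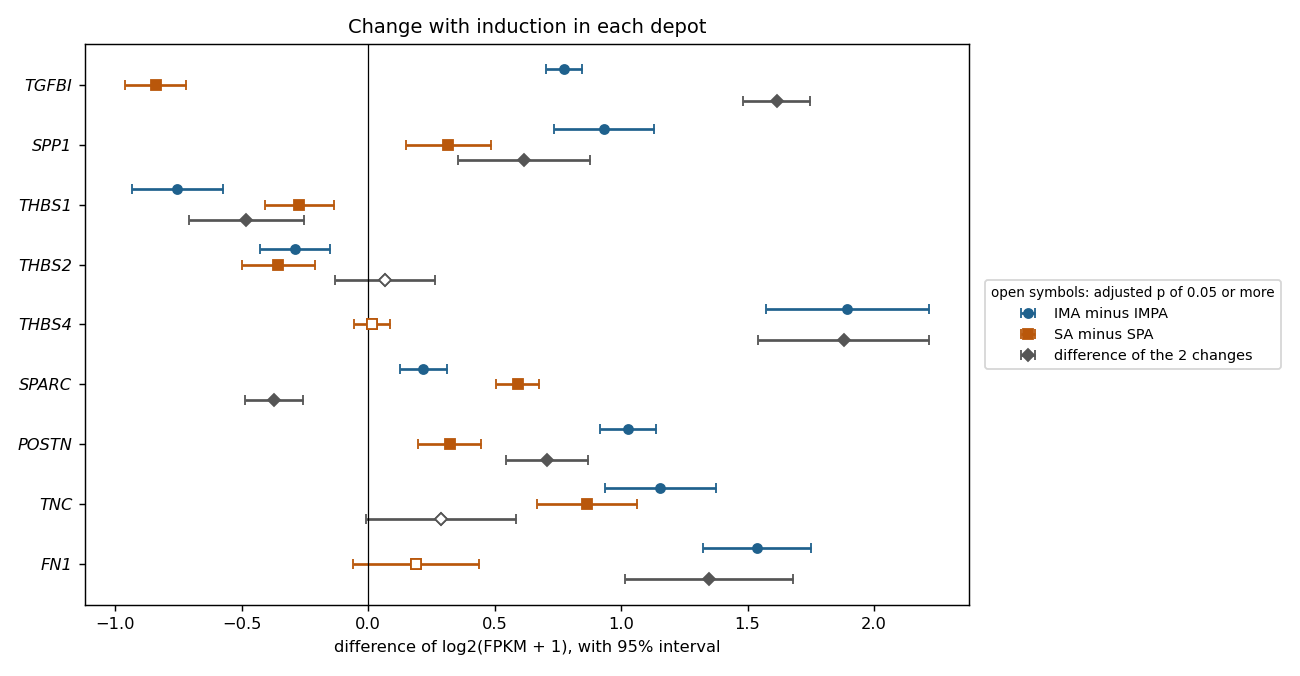
Change with induction of the 9 genes as a difference of log2(FPKM + 1) (horizontal axis), for IMA minus IMPA (circles), SA minus SPA (squares) and the difference of these changes (diamonds), each with its 95% interval from limma. TGFBI moved by 0.77 in intramuscular and by -0.84 in subcutaneous cells, and FN1 and THBS4 by 1.54 and 1.89 in intramuscular cells with open symbols, not called, in subcutaneous cells.

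TGFBI and POSTN are related secreted proteins built of fasciclin domains, and both bind integrins and collagen. TGFBI carries the name of the growth factor that induces it, TGF-beta. In intramuscular cells TGFBI was listed at 143, 159, 146, 147 and 152 FPKM in IMPA and at 253, 253, 260.0, 259 and 254 FPKM in IMA. In subcutaneous cells it was 754, 767, 775, 811 and 795 FPKM in SPA and 456, 393, 400.1, 463 and 469 FPKM in SA. No 2 groups overlapped, the 5 IMA values lay within 7 FPKM of each other, and the order of the groups was SPA, SA, IMA and IMPA from high to low. Means were 149 ± 5.96 FPKM in IMPA, 256 ± 3.16 in IMA, 780.3 ± 22.6 in SPA and 436 ± 36.6 in SA (SD, n = 5). TGFBI rose by 0.77 log2 units (SE 0.0328, adjusted p = 3.59e-09) in intramuscular cells, and in subcutaneous cells it fell by 0.84 log2 units (SE 0.0547, adjusted p = 8.83e-08). The interaction was 1.61 log2 units (SE 0.0643, adjusted p = 1.76e-14), with a 95% interval of 1.48 to 1.75. In SA, libraries 2 and 3 were the lowest, and without them the subcutaneous difference was -0.75. Preadipocytes of the 2 sites differed by -2.38 log2 units (SE 0.0351, adjusted p = 1.88e-14) between IMPA and SPA, a 5.22-fold higher mean in SPA, and induced cells by -0.76 log2 units (SE 0.0532, adjusted p = 1.04e-08) between IMA and SA, a 1.70-fold higher mean in SA.

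Periostin, which promotes the cross-linking of collagen and is typical of fibroblasts in repair, was lower than TGFBI in every group. Its values were 31.2, 30.8, 31.3, 32.2 and 33.9 FPKM in IMPA and 64.3, 68.9, 73.2, 63.1 and 61.1 FPKM in IMA. In the subcutaneous cells POSTN was listed at 12.4, 13.4, 12.1, 12.0 and 12.8 FPKM in SPA and at 14.9, 17.3, 17.6, 15.4 and 14.5 FPKM in SA. The groups were fully separate, in the order IMA, IMPA, SA and SPA from high to low. POSTN rose by 1.03 log2 units (SE 0.0502, adjusted p = 1.36e-08) in intramuscular cells, where its mean became 2.07-fold higher, and by 0.32 log2 units (SE 0.0572, adjusted p = 0.000525) in subcutaneous cells, where the mean became 1.27-fold higher. The interaction was 0.71 log2 units (SE 0.0775, adjusted p = 1.24e-07). Intramuscular cells exceeded subcutaneous cells by 1.28 log2 units (SE 0.0403, adjusted p = 1.69e-11) as preadipocytes and by 1.99 log2 units (SE 0.0634, adjusted p = 1.32e-12) after induction. TGFBI and POSTN thus stood on opposite sides in the comparison of the sites, TGFBI higher in subcutaneous and POSTN in intramuscular cells.

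Osteopontin, the product of SPP1, is a phosphorylated protein recognised by integrins and by CD44, and in adipose tissue it is best known as a product of macrophages. SPP1 was 39.4, 49.7, 34.6, 42.8 and 39.3 FPKM in IMPA and 91.1, 79.6, 77.3, 79.3 and 68.5 FPKM in IMA. It was listed at 18.6, 16.9, 19.9, 16.0 and 19.5 FPKM in SPA and at 20.5, 25.1, 26.1, 21.3 and 21.6 FPKM in SA, where libraries 2 and 3 were the highest. IMA lay above IMPA, IMPA above both subcutaneous groups, and the lowest SA value of 20.5 FPKM above the highest SPA value of 19.9 FPKM, a narrow gap. SPP1 rose by 0.93 log2 units (SE 0.0909, adjusted p = 4.92e-06) in intramuscular cells and by 0.32 log2 units (SE 0.0767, adjusted p = 0.00439) in subcutaneous cells, and without SA 2 and SA 3 the latter was 0.21 (limma adjusted p = 0.0263). The interaction was 0.62 log2 units (SE 0.125, adjusted p = 0.000294). The sites differed by 1.13 log2 units (SE 0.0872, adjusted p = 1.10e-07) between IMPA and SPA and by 1.74 log2 units (SE 0.0782, adjusted p = 6.80e-11) between IMA and SA.

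The defining leukocyte marker PTPRC and the macrophage marker CSF1R were near 0 throughout, with group means of at most 0.00522 and 0.0408 FPKM. CD14, the most abundant of the 8 matched, had group means from 5.91 FPKM in IMPA to 14.4 FPKM in SPA. The summed level of the 8 was 4.46 to 8.41 FPKM in IMPA, 9.81 to 12.4 in IMA, 15.7 to 18.3 in SPA and 12.8 to 16.0 in SA. CD14 and CD68, the 2 of the 8 that were tested, were called higher in IMA than in IMPA and lower in IMPA than in SPA, and the part of this list in the differences of SPP1 was not tested. IBSP, a bone sialoprotein related to osteopontin, was 1.63 and 3.46 FPKM on average in IMPA and IMA and 0.00875 FPKM in SPA, and it was listed at 0 in all 5 SA libraries. It belongs to a list of 8 bone and cartilage markers whose sum was 11.9 to 14.9 FPKM in the intramuscular and 7.64 to 10.8 FPKM in the subcutaneous libraries. The most abundant was the bone transcription factor RUNX2, with group means of 5.47 to 7.25 FPKM, and the cartilage factor SOX9 had means of 3.38 FPKM in IMPA, 2.61 in IMA, 0.477 in SPA and 0.518 in SA. SP7 had group means of 0.665 to 1.90 FPKM, osteocalcin (BGLAP) of 0.308 to 0.456, ALPL of at most 0.622, ACAN of at most 0.109 and COL2A1 of at most 0.00574 FPKM.

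Thrombospondins are large multimeric glycoproteins. THBS1, a trimer that binds CD36 and CD47 and can activate latent TGF-beta, was 282, 247, 319, 281 and 317 FPKM in IMPA and 150.1, 159, 198, 174 and 174 FPKM in IMA. In subcutaneous cells THBS1 was 271, 284, 283, 296 and 278 FPKM in SPA and 255, 209.7, 208, 254 and 248 FPKM in SA, again with libraries 2 and 3 of SA apart, here as the lowest. The preadipocyte groups overlapped and both lay above the IMA values, and SA lay between SPA and IMA and overlapped IMPA. THBS1 fell in both cell types, with a difference of -0.75 log2 units (SE 0.0825, adjusted p = 1.21e-05) in intramuscular and of -0.27 log2 units (SE 0.0623, adjusted p = 0.00306) in subcutaneous cells, the latter -0.16 without SA 2 and SA 3 (adjusted p = 0.00203). The interaction was -0.48 log2 units (SE 0.109, adjusted p = 0.000789), the larger decrease being that of intramuscular cells. THBS1 was the one gene of the 9 not called between IMPA and SPA, with a difference of 0.03 log2 units (SE 0.0627, adjusted p = 0.700) and a 95% interval of -0.11 to 0.16, which became -0.044 with quantile normalization. After induction it was lower in IMA than in SA, with a difference of -0.45 log2 units (SE 0.0796, adjusted p = 0.000146).

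THBS2, also trimeric and known from the ordering of collagen fibrils, was 78.4, 71.6, 88.5, 80.8 and 93.7 FPKM in IMPA and 64.3, 67.2, 65.5, 68.7 and 69.8 FPKM in IMA. Its subcutaneous values were 426, 466, 482, 509.9 and 486 FPKM in SPA and 394, 345, 326, 395 and 396 FPKM in SA. The subcutaneous values all lay far above the intramuscular ones, and in each cell type the induced libraries lay below the others. The difference with induction was -0.29 log2 units (SE 0.0630, adjusted p = 0.00184) in intramuscular and -0.36 log2 units (SE 0.0656, adjusted p = 0.000690) in subcutaneous cells. The interaction was not called, 0.07 log2 units (SE 0.0947, adjusted p = 0.581), with a 95% interval of -0.13 to 0.26, and it was -0.029 without SA 2 and SA 3. The difference between the sites was -2.51 log2 units (SE 0.0696, adjusted p = 4.90e-12) for preadipocytes and -2.45 log2 units (SE 0.0575, adjusted p = 4.10e-14) after induction, so the mean was 5.74-fold higher in SPA than in IMPA and 5.53-fold higher in SA than in IMA.

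THBS4, a pentameric thrombospondin of muscle and tendon, was the least abundant of the 9 genes. It was 1.56, 3.11, 1.34, 2.12 and 1.29 FPKM in IMPA and 9.80, 10.6, 7.72, 10.2 and 9.24 FPKM in IMA. In the subcutaneous cells it was listed at 0.0403, 0, 0.0551, 0.0301 and 0 FPKM in SPA and 0.0828, 0, 0.0226, 0.0509 and 0.0219 FPKM in SA, at 0 in 2 and 1 of the 5 libraries. All IMA libraries were above all IMPA libraries, and the 2 subcutaneous groups overlapped near 0. THBS4 rose by 1.89 log2 units (SE 0.147) in intramuscular cells, with a 5.05-fold higher mean. In subcutaneous cells the difference was 0.01 log2 units (SE 0.0319, adjusted p = 0.730), with a 95% interval of -0.06 to 0.08. The interaction was 1.88 log2 units (SE 0.162). Intramuscular cells exceeded subcutaneous cells by 1.46 log2 units before and by 3.34 log2 units after induction. No p is given for these, since THBS4 passed the filter through the intramuscular groups alone, which fixed the direction. Of these groups it was IMA that carried THBS4 past the filter. This favoured the intramuscular rise and a positive interaction, so no p is given for them either. No ratio is given against values this close to 0. The muscle markers differed between the same groups in the same direction, and their part in these results was not tested. The 6 tendon markers summed to 148 to 175 FPKM in IMPA, 123 to 141 in IMA, 72.5 to 79.7 in SPA and 74.8 to 81.7 in SA, nearly all of it from fibromodulin (FMOD), with means of 153.5, 127.5, 71.0 and 77.7 FPKM in the same order. FMOD was called lower in IMA than in IMPA, where THBS4 was higher, and both were higher in intramuscular than in subcutaneous cells. EGR1 had means of 5.50, 1.57, 5.71 and 0.815 FPKM, TNMD was listed at 0 in every library of IMA and SA, SCX had group means of 0.135 to 0.654 FPKM, KERA of 0.0271 to 0.301 FPKM, and MKX of 2.55 FPKM in IMPA, 4.04 in IMA, 0.0488 in SPA and 0.150 in SA. The part of this list was not tested either.

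As a share of the summed THBS1, THBS2 and THBS4 level, given here as a description with no test, THBS1 was 77.4% ± 0.557 in IMPA, 68.9% ± 2.44 in IMA, 37.4% ± 1.02 in SPA and 38.7% ± 0.596 in SA (SD, n = 5). THBS2 made up 22.1%, 27.2%, 62.6% and 61.3% of the sum in the same groups. THBS1 was thus the more abundant of the pair in intramuscular cells and THBS2 in subcutaneous cells. THBS4 reached 3.87% of the sum in IMA, from 0.524% in IMPA, and was at most 0.0127% in a subcutaneous library.

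Tenascin C is a hexameric protein of tissue repair and tendon that binds fibronectin. TNC was 34.2, 38.4, 32.3, 46.2 and 29.5 FPKM in IMPA and 76.0, 76.7, 79.3, 91.3 and 80.8 FPKM in IMA. In subcutaneous cells it was 0.864, 1.14, 0.831, 0.896 and 1.03 FPKM in SPA and 2.99, 2.20, 1.98, 2.55 and 3.19 FPKM in SA. The groups were again separate, in the order IMA, IMPA, SA and SPA from high to low, with a wide gap between the sites. TNC rose by 1.15 log2 units (SE 0.101, adjusted p = 2.05e-06) in intramuscular and by 0.87 log2 units (SE 0.0906, adjusted p = 6.65e-06) in subcutaneous cells, and the means became 2.24-fold and 2.71-fold higher. The interaction of 0.29 log2 units (SE 0.143, adjusted p = 0.0927) was not called, its 95% interval was -0.01 to 0.59, and its sign depended on the pseudocount, with -0.16 for 0.1 in place of 1. It was called without SPA 1 and SA 5 (0.36, adjusted p = 0.0436), without IMPA 4 (0.38, adjusted p = 0.0147) or without SA 5 (0.35, adjusted p = 0.0421). Without SA 2 and SA 3 it was 0.15 (adjusted p = 0.364). TNC had the widest difference between the sites of the 9 genes on this scale, 4.23 log2 units (SE 0.101, adjusted p = 1.22e-12) for preadipocytes and 4.52 log2 units (SE 0.0878, adjusted p = 4.67e-15) after induction, with means 37.9-fold and 31.3-fold higher in intramuscular cells. These ratios and the 2.71-fold rise rest on low means, 0.953 FPKM in SPA and 2.58 in SA, at unknown depth, and their size is uncertain.

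Fibronectin forms the fibrillar scaffold on which cells spread, and it binds integrins of the ITGA5 type. FN1 was 245, 299, 242, 334 and 233 FPKM in IMPA and 675, 778, 804, 847 and 803 FPKM in IMA. In subcutaneous cells it was 477, 599.8, 581, 598 and 568 FPKM in SPA and 723, 559, 496, 745 and 728 FPKM in SA. IMPA was the lowest group and was separate from the others, while SA overlapped both SPA and IMA, since its libraries 2 and 3 were at the level of SPA and its other libraries near that of IMA. FN1 rose by 1.54 log2 units (SE 0.0977, adjusted p = 1.52e-07) in intramuscular cells, the largest log2 change of the 9 genes after THBS4, with a 2.89-fold higher mean. In subcutaneous cells the difference was 0.19 log2 units (SE 0.114, adjusted p = 0.184), with a 95% interval of -0.06 to 0.44. That difference became 0.28 without SA 3 (adjusted p = 0.0255) and 0.38 without SA 2 and SA 3. These libraries had the lowest FN1 values of SA and were left out after that was seen. Leaving them out could only raise the difference, so no p is given for 0.38. The subcutaneous difference was 0.13 without SPA 1 (adjusted p = 0.365) and 0.084 without SPA 1 and SA 5 (adjusted p = 0.579). The interaction was 1.35 log2 units (SE 0.159, adjusted p = 3.54e-07), and 1.16 without SA 2 and SA 3. Among preadipocytes FN1 was lower in IMPA than in SPA, with a difference of -1.07 log2 units (SE 0.0996, adjusted p = 6.90e-07). Between IMA and SA the difference was 0.28 log2 units (SE 0.107, adjusted p = 0.0300), the smallest of those called between these groups, and it was 0.090 without SA 2 and SA 3 (adjusted p = 0.212). It was also not called when any 1 of IMA 2, 3, 4 or 5 or SA 2 or 3 was left out, with adjusted p values of 0.0505 to 0.0778.

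SPARC, a small collagen-binding protein needed for the normal assembly of collagen outside cells, was the most abundant of the 9 genes in every group and ranked between 10 and 65 among the mean levels of all symbols. It was 1730, 1799, 1760, 1690 and 1834 FPKM in IMPA and 1871, 2082, 2049, 2152 and 2105 FPKM in IMA. In subcutaneous cells SPARC was 992, 1045, 1049, 1026 and 1042 FPKM in SPA and 1609, 1507, 1517, 1625 and 1508 FPKM in SA. The groups did not overlap, and SPA was the lowest. SPARC rose by 0.22 log2 units (SE 0.0430, adjusted p = 0.000958) in intramuscular cells, the smallest of the called increases there, and by 0.59 log2 units (SE 0.0391, adjusted p = 1.04e-07) in subcutaneous cells. The interaction was -0.37 log2 units (SE 0.0555, adjusted p = 8.24e-06), the larger increase being that of subcutaneous cells. IMPA exceeded SPA by 0.77 log2 units (SE 0.0327, adjusted p = 2.92e-10) and IMA exceeded SA by 0.40 log2 units (SE 0.0487, adjusted p = 4.42e-06).

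Added together, the 9 genes reached 2666 ± 55.4 FPKM in IMPA, 3563 ± 184 in IMA, 3164 ± 123 in SPA and 3287 ± 245 in SA (SD, n = 5). SPARC made up 66.1% of this sum in IMPA, 57.6% in IMA, 32.6% in SPA and 47.4% in SA. The groups ran from IMA through IMPA and SA to SPA for SPP1, SPARC, POSTN and TNC, from high to low, and no neighbours in these orders overlapped. For THBS4 the order was the same, but SA and SPA could not be separated. IMPA and SA, neighbours in these orders, differ in both site and stage and were not tested against each other.

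Between the 2 sites, the comparison of IMPA with SPA asks how preadipocytes of muscle and of subcutaneous fat differed. It called 8 of the 9 genes, 5 higher in IMPA (SPP1, THBS4, SPARC, POSTN and TNC) and 3 lower (TGFBI, THBS2 and FN1), and all 8 had groups that did not overlap. Among all genes tested, 42.3% were called higher and 32.9% lower, and 63.4% did not overlap. With quantile normalization 4046 were higher and 4665 lower, in place of 4831 and 3757, and the median of all genes was -0.033 in place of 0.055. The comparison of IMA with SA called all 9, 6 higher in IMA (those 5 and FN1) and 3 lower (TGFBI, THBS1 and THBS2), with groups that did not overlap for all but FN1. The background there was 29% higher, 43.4% lower and 58.6% without overlap. THBS4 is counted in both comparisons, though the filter it passed fixed its direction. Median log2 differences were 0.77 and 0.40 for the 9 genes, against 0.055 and -0.091 for all. These comparisons use the same libraries as those of induction, so they are not independent of them. Besides the muscle markers, the summed level of 8 stromal fibroblast markers differed between the sites, 3937 to 4365 FPKM in the intramuscular and 9261 to 12130 FPKM in the subcutaneous libraries, with 6 of them called lower in IMPA than in SPA and all 8 lower in IMA than in SA. The 8 proliferation markers were all called higher in IMPA than in SPA (median log2 difference 1.23) and all lower in IMA than in SA (-0.94), with sums of 128 to 159 FPKM in IMPA and 117 to 143 FPKM in IMA. Of the tendon markers 3 were tested, and 2 were higher in IMPA than in SPA and all 3 in IMA than in SA. The part of these lists in the differences was not tested.

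**Figure D3:**
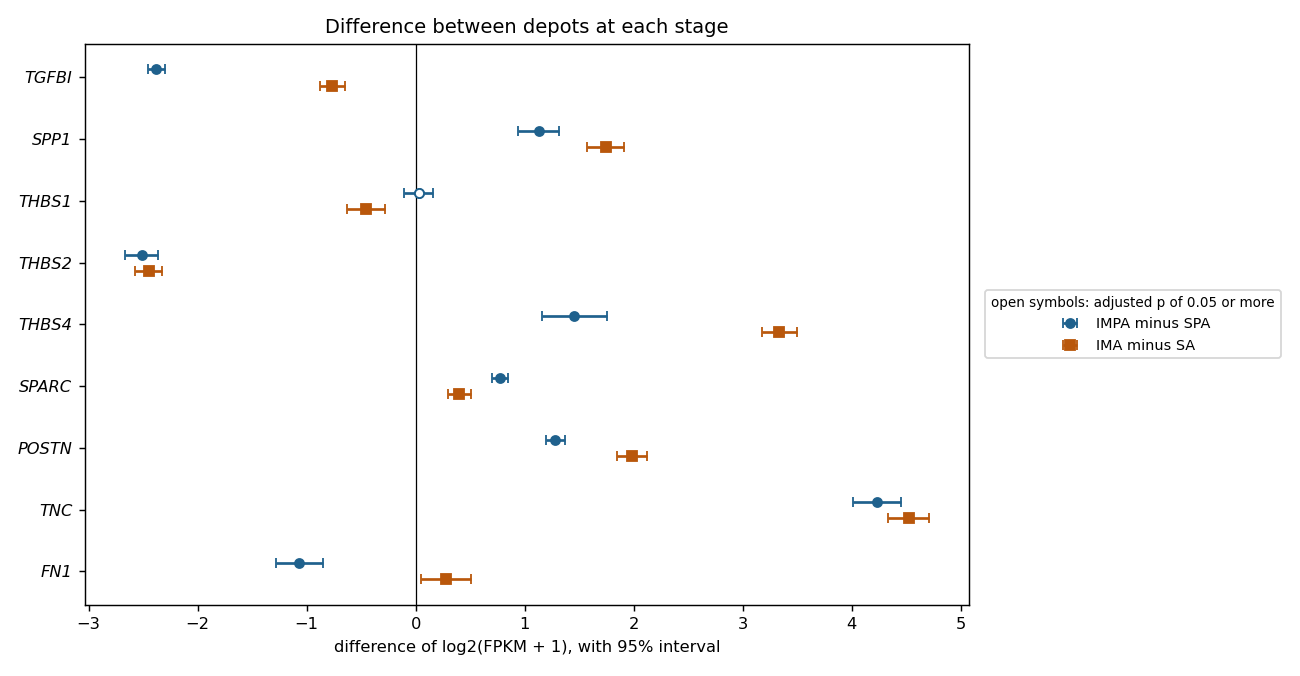
Difference between intramuscular and subcutaneous cells in log2(FPKM + 1) (horizontal axis) for the 9 genes, as preadipocytes (IMPA minus SPA, circles) and after induction (IMA minus SA, squares), with 95% intervals from limma. TNC lay furthest to the right at 4.23 and 4.52, THBS2 furthest to the left at -2.51 and -2.45, and FN1 moved from -1.07 to 0.28; the open circle is THBS1, not called between IMPA and SPA.

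The 9 genes were represented by 34 transcripts, 11 of FN1, 8 of POSTN, 4 each of THBS1 and TNC, 2 each of SPP1 and SPARC and 1 each of TGFBI, THBS2 and THBS4. The share of the transcript with the highest mean over all libraries was compared for the 5 genes whose second transcript made up at least 5% of the gene. This choice leans towards the groups in which a gene is high. The 19 tests were exact two-sided permutation tests, each over the 252 ways to divide 10 libraries, which cannot give a p below 0.00794. Shares depend on how reads common to several transcripts were divided among them in quantification and are less certain than the sums. SPARC came almost wholly from 1 transcript, the other having group means of 0.169 to 0.314 FPKM.

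The periostin transcript XM_005687491.3 made up 34.3, 37.2, 29.1, 31.0 and 35.3% of POSTN in IMPA and 46.1, 40.3, 47.8, 43.8 and 49.1% in IMA. In the subcutaneous libraries it was 13.4, 13.5, 11.6, 17.9 and 18.6% in SPA and 32.9, 28.1, 22.1, 34.7 and 25.7% in SA. None of the groups compared overlapped. The share rose from 33.4% to 45.4% on average in intramuscular and from 15.0% to 28.7% in subcutaneous cells, and all 4 comparisons gave the smallest exact p possible, 0.00794 (0.0251 after Benjamini-Hochberg adjustment over the 19 tests). The transcript was chosen on its mean over all libraries, to which IMA gave most, at 30.0 FPKM. Its choice therefore favoured a higher share in IMA, which limits the p values of the comparisons with that group. Periostin thus rose both in level and in the share of this transcript, and the transcript XM_005687497.3, singled out after its values were seen, stood at 24.4% ± 7.21 in SPA and 10.7% ± 3.46 in SA (SD, n = 5).

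The tenascin transcript XM_018052682.1, the most abundant of TNC over all libraries through its level in IMA, made up 42.9, 39.5, 31.3, 42.2 and 0% of TNC in IMPA and 57.2, 64.6, 52.9, 63.4 and 47.8% in IMA. It was listed at 0 in all 10 subcutaneous libraries, as it was in IMPA 5. In IMPA another transcript, XM_018052681.1, was higher on average, at 18.15 against 11.89 FPKM. The share of XM_018052682.1 rose with induction in intramuscular cells, from 31.2% to 57.2% on average. No p is given for this rise, since the choice of the transcript through IMA favoured it. For the comparisons between the sites no p is given, since the choice of this transcript and its level of 0 in every subcutaneous library fixed their direction. In SA, TNC came mainly from XM_018052681.1, at 89.9% ± 9.96 (SD, n = 5), and in SPA the share of this transcript ran from 0% to 97.7% at a TNC level near 1 FPKM, so that no pattern can be read there.

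The transcript shares of the other genes differed less. For SPP1, the share of XM_013964504.2 was 52.5% in IMA and 47.6% in SA (exact p = 0.0159, adjusted 0.0377), and the other comparisons had adjusted values of 0.137 to 0.594. For THBS1, the share of XM_018054472.1 was 85.8% in IMPA and 83.4% in SPA (exact p = 0.0159, adjusted 0.0377), and the others were 0.121 to 0.720. FN1 was divided mainly between XM_018059825.1 and XM_018059793.1, and the first made up 38.7, 56.4, 55.0, 56.9 and 57.9% in IMPA and 42.3, 60.6, 59.6, 37.3 and 59.4% in IMA. The group means were 47.4% to 55.5%, a narrower span than that of the libraries within IMA alone, and none of the 4 comparisons passed (adjusted exact p from 0.394 to 0.992).

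**Figure D4:**
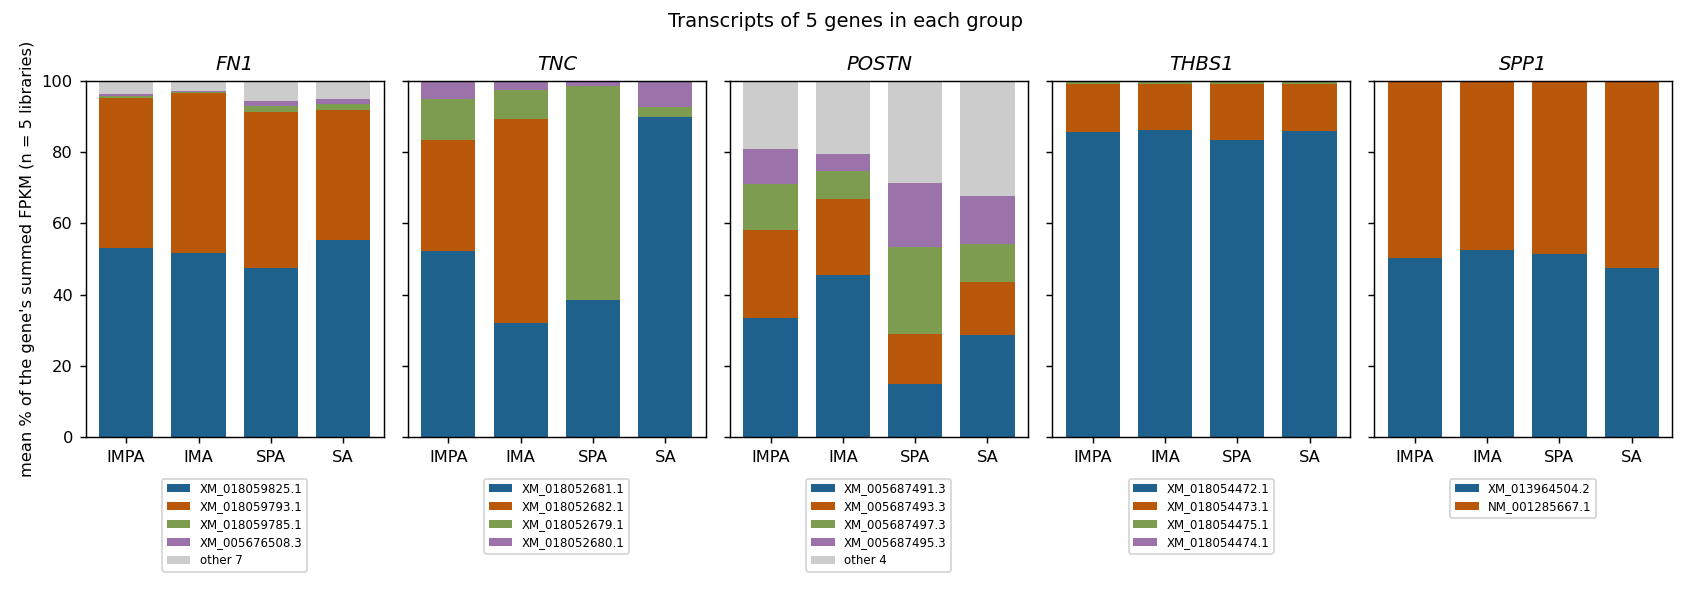
Mean share (vertical axis, % of the summed FPKM of a gene, n = 5 libraries) of each transcript of FN1, TNC, POSTN, THBS1 and SPP1 in IMPA, IMA, SPA and SA, with stacked colours for the transcripts named under each panel and grey for the sum of the rest. The POSTN transcript XM_005687491.3 (blue) was 33.4% in IMPA and 45.4% in IMA, and the TNC transcript XM_018052682.1 (orange) was listed above 0 in intramuscular cells alone.

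Of a list of 24 other matricellular genes, all were matched, 6 of the CCN family under older symbols, and 16 were tested. In intramuscular cells 8 were called higher, 7 lower and 1 was not called, and in subcutaneous cells the counts were 8, 6 and 2. The shares of all genes tested were 19.9% higher and 40.2% lower in intramuscular and 26.1% and 26% in subcutaneous cells. Their median log2 differences were -0.015 and 0.15, against -0.085 and -0.0091 for all genes tested. OGN (osteoglycin) and SPOCK1 (testican, a SPARC relative) fell in intramuscular cells, OGN from 52.6 to 19.5 FPKM on average, a difference of -1.36 log2 units (SE 0.135, adjusted p = 5.68e-06), and SPOCK1 from 13.3 to 5.31 FPKM, -1.18 log2 units (SE 0.0689, adjusted p = 6.86e-08). COMP, a thrombospondin of cartilage and tendon, rose by 0.87 log2 units (SE 0.0697, adjusted p = 1.07e-06) and IBSP by 0.79 log2 units (SE 0.169). For IBSP no p is given, since, though counted, it passed the filter through IMA, which favoured a rise. In subcutaneous cells SPOCK1 moved the other way, from 1.78 to 8.09 FPKM, by 1.71 log2 units (SE 0.0741, adjusted p = 2.35e-09), and its interaction was -2.90 log2 units (SE 0.103, adjusted p = 3.89e-15). The elastic fibre protein FBLN5 rose by 1.06 log2 units (SE 0.0576, adjusted p = 1.69e-08) and CCN3 by 0.82 log2 units (SE 0.0777, adjusted p = 2.85e-06) in these cells, and EMILIN1, also of elastic fibres, fell by 0.66 log2 units (SE 0.0435, adjusted p = 9.42e-08). SPARC and SPOCK1, which share domains, therefore had opposite signs in intramuscular cells, and both rose in subcutaneous ones.

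Of 21 receptors of these proteins (integrins, CD36, CD44, CD47 and others) 20 were matched and 18 tested. In intramuscular cells 5 were called higher and 6 lower, and in subcutaneous cells 7 higher and 6 lower, against 19.9% and 40.2% and against 26.1% and 26% of all genes. CD36, a receptor of THBS1 and THBS2 that also takes up fatty acids, rose in both, from 0.252 to 4.92 FPKM in intramuscular cells, 2.24 log2 units (SE 0.0709), and from 0.0679 to 0.934 FPKM in subcutaneous cells, 0.84 log2 units (SE 0.103, adjusted p = 2.62e-05). For the intramuscular rise no p is given, since CD36, though counted, passed the filter through IMA, which favoured it. CD44, the osteopontin receptor, rose from 59.7 to 98.9 FPKM in intramuscular cells, 0.75 log2 units (SE 0.126, adjusted p = 0.000312), and was 27.4 and 29.7 FPKM in SPA and SA, 0.11 log2 units (SE 0.0632, adjusted p = 0.175). The integrin subunit ITGB6 rose in intramuscular cells, 0.79 log2 units (SE 0.0695, adjusted p = 2.07e-06), and was at most 0.0681 FPKM in any subcutaneous library. ITGB5 fell in intramuscular cells, -0.64 log2 units (SE 0.0502, adjusted p = 8.97e-07). Among subcutaneous cells ITGB3 rose by 0.67 log2 units (SE 0.0412, adjusted p = 5.04e-08), the fibronectin receptor subunit ITGA5 fell by 0.59 log2 units (SE 0.0747, adjusted p = 3.52e-05), and LRP1, which takes up thrombospondins, fell by 0.45 log2 units (SE 0.130, adjusted p = 0.0122). Between the sites, 12 of the 18 were higher in IMPA than in SPA and 5 lower, and 12 were higher and 6 lower in IMA than in SA, where 42.3% and 32.9%, and 29% and 43.4%, of all genes were.

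Of 19 genes of the TGF-beta pathway, all tested, 6 were called higher and 6 lower in intramuscular cells and 3 higher and 10 lower in subcutaneous cells, against 19.9% and 40.2% and against 26.1% and 26% of all genes. The ligand TGFB3 rose in intramuscular cells from 9.41 to 28.1 FPKM, 1.49 log2 units (SE 0.0817, adjusted p = 4.00e-08), and fell in subcutaneous cells from 22.7 to 11.0 FPKM, -0.98 log2 units (SE 0.0536, adjusted p = 1.79e-08), with an interaction of 2.47 log2 units (SE 0.101, adjusted p = 2.78e-14). TGFBI had differences of 0.77 and -0.84 in the same comparisons. TGFB3 was highest in IMA and TGFBI in SPA, and a link between these genes was not tested. The inhibitor SKIL rose by 0.61 log2 units (SE 0.0659, adjusted p = 1.10e-05) in intramuscular cells, and the latent TGF-beta binding proteins LTBP3 and LTBP2 fell, with differences of -0.76 log2 units (SE 0.0583, adjusted p = 7.00e-07) and -0.60 log2 units (SE 0.114, adjusted p = 0.000804). In subcutaneous cells SMAD3 and TGFB1I1 fell, with differences of -0.62 log2 units (SE 0.0416, adjusted p = 1.19e-07) and -0.59 log2 units (SE 0.129, adjusted p = 0.00237). Between the sites 6 of the 19 were higher and 10 lower in IMPA than in SPA, and 7 were higher and 8 lower in IMA than in SA, beside the same shares of all genes as for the receptors.

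**Figure D5:**
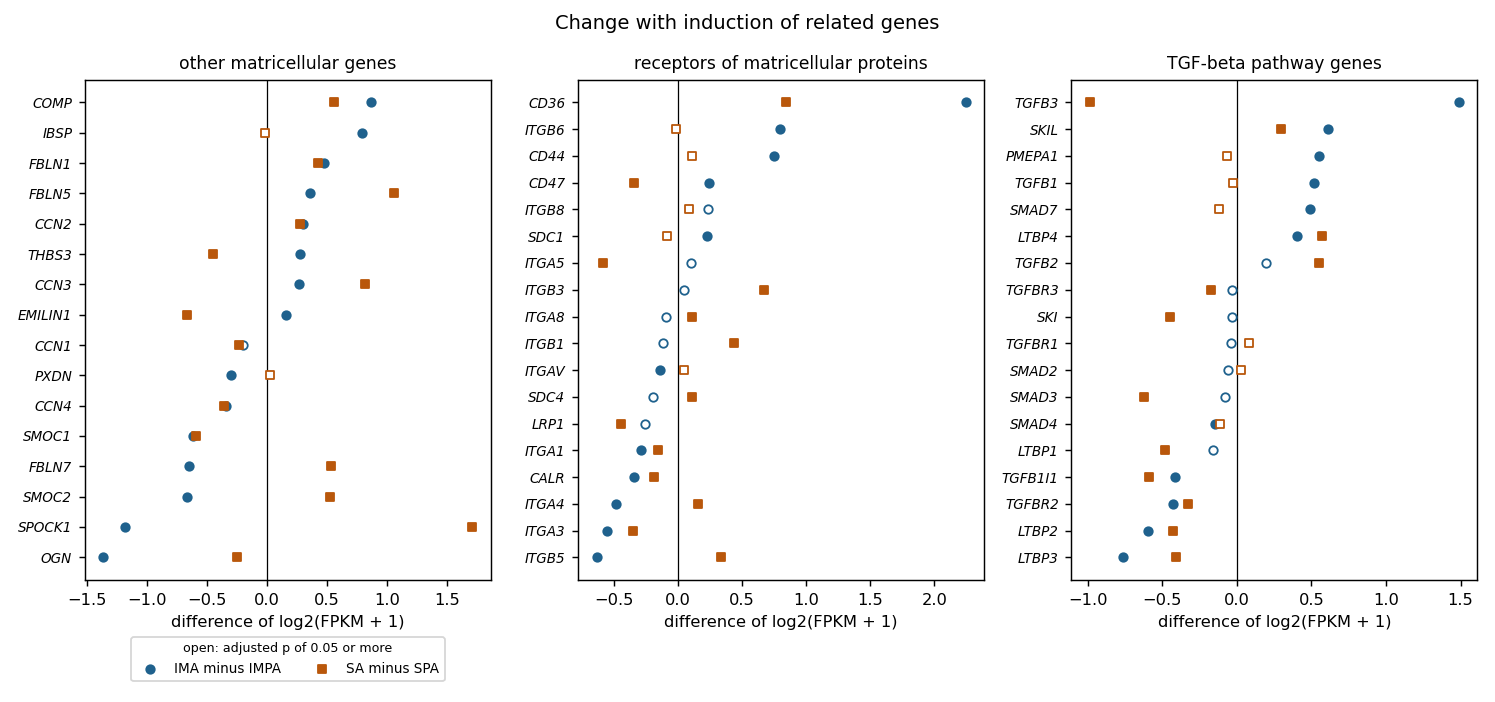
Change with induction (horizontal axes, difference of log2(FPKM + 1)) of the tested genes reported here among other matricellular genes, receptors and the TGF-beta pathway, for IMA minus IMPA (circles) and SA minus SPA (squares), with open symbols for genes not called. SPOCK1 and TGFB3 had symbols far apart on opposite sides of 0, and CD36 lay to the right of 0 in both cell types.

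The genes whose pattern over the 20 libraries was most like that of TNC, THBS4, THBS2 and TGFBI, the 4 with the widest range of group means, were found from the root mean square difference of log2(FPKM + 1) after centring each gene. For TGFBI these were WLS (0.18), LAYN (0.21) and RAMP2 (0.21). For THBS2 they were PROS1 (0.12), ADAM33 (0.13) and ADAMTSL3 (0.13). Those of THBS4 were HSPB7 (0.21), COL5A3 (0.22) and TPM3 (0.23), and those of TNC were further away, with ASB5 at 0.35, CYTIP at 0.35 and AKR1B1 at 0.36.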

How the data were processed

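RNA of 20 goat cell libraries, 5 per group, had been sequenced by the authors from strand-specific total RNA libraries on an Illumina HiSeq. The deposited values are FPKM per transcript. According to the study's methods and the submitters' processing notes, the authors aligned reads with HISAT2 2.0.4 to the goat assembly ARS1, assembled transcripts with Scripture and Cufflinks, and calculated FPKM with StringTie 1.3.1, Ballgown and Cuffdiff. Nothing was realigned, and no counts were used here. The mRNA table held 43766 transcripts under 20587 symbols; 0 of its library columns were left unmapped. FPKM of the transcripts of a symbol were summed and used as log2(FPKM + 1) without further scaling. Genes with a mean of at least 1 FPKM were tested.

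Libraries were grouped by the titles in the labels. IMA against IMPA, SA against SPA, IMPA against SPA and IMA against SA were each fitted over 10 libraries, and the interaction over 20, with limma 3.58.1 (moderated variances with a trend) under R 4.3.3, and adjusted p values quoted without another name come from limma. Transcript shares were compared by exact permutation tests in scipy 1.17.1 under Python 3.11.15. Scripts were tested on simulated data. The 9 genes and the other lists were chosen with earlier results of these data known. Named from each list are up to 4 called genes with the largest change in each comparison of induction (1 gene of the TGF-beta list, kept in its counts, is not reported here), and genes of like pattern for the 4 members with the widest range. Alternatives were a pseudocount of 0.1, a minimum mean of 0.1 FPKM or none, upper-quartile, mRNA total and quantile scaling, no variance trend, all 4 groups in the fit, a replicate block, the most abundant transcript in place of the sum, the lncRNA tables added, single libraries left out, SPA 1 and SA 5 left out (the quality filter of the authors took a smaller share of their reads than of those of the other 8 subcutaneous libraries, as it did in all 10 intramuscular ones), and, added after the values were seen, SA 2 and SA 3 left out.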

Additional observations from a re-analysis of the deposited data

Results flagged for a closer look

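Among 36 sets of 5 libraries, 9 genes in 4 groups, 1 library lay far from the others by Dixon's criterion. FN1 in SPA 1 was 476.9 FPKM, against 567.6 to 599.8 FPKM in the other SPA libraries, and chance alone marks about 1 set in 20.

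The response to induction differed between the 2 cell types, by the interaction in limma on the log2(FPKM + 1) scale, for 7 of the 9 genes, 5 positive and 2 negative, where 20.7% of all genes tested had a called positive and 34.6% a called negative one. It was 1.61 for TGFBI, 0.62 for SPP1, 1.88 for THBS4, 0.71 for POSTN and 1.35 for FN1, all more positive in intramuscular cells, and -0.48 for THBS1 and -0.37 for SPARC. For TGFBI the 5 IMA libraries were above all IMPA libraries while the 5 SA libraries were below all SPA libraries. Leaving out THBS4, for which the filter favoured a positive value, the adjusted p values lay between 1.76e-14 for TGFBI and 0.000789 for THBS1. No cause was tested for any of these differences.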

How the results depend on the processing

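Of 548 differences of the 9 genes recomputed under alternatives other than single libraries, 535 kept their direction and side of the threshold, 6 lost the call, 4 gained it and 3 turned, and of 540 with 1 library left out the numbers were 528, 6, 3 and 3. The number of the 9 genes called between SA and SPA was 7, and it was 4 when the most abundant transcript stood in for the sum, where SPP1 (0.20) and THBS1 (-0.23) lost the call and the TNC transcript was at 0 in all 10 libraries. The differences that turned were small ones not called in either form. THBS1 between IMPA and SPA was -0.044 with quantile normalization and -0.0092 to 0.083 with 1 library left out, THBS4 between SA and SPA was -0.0016 to 0.027 with 1 library left out, the TNC interaction was -0.16 with a pseudocount of 0.1, and the THBS2 interaction was -0.029 without SA 2 and SA 3. The TNC interaction was called with quantile normalization (0.40). It was also called for the most abundant transcript (2.39), which was at 0 in every subcutaneous library. That value is the intramuscular change alone and cannot compare the cell types. FN1 between IMA and SA lost the call with no filter (0.28), with quantile normalization (0.20), for the most abundant transcript (0.16) and without SA 2 and SA 3 (0.090). The cause was not tested.

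The labels do not name the goat behind a replicate number, and the data did not show that the numbers pair the libraries. The study named 5 goats and 5 biological replicates in each group, which implies that the groups shared animals. Which libraries did so is unknown, and the main tests treated all libraries as independent. Deviations of same-numbered libraries correlated between -0.242 and 0.176 over the pairs of groups. Between IMA and IMPA all 5 were positive, 0.0417 to 0.121, and 3 of 5 IMA libraries matched their own number best in IMPA. With the replicate number as a block, 9, 7, 8, 9 and 7 of the 9 genes were called in the 4 comparisons and the interaction, as without it, and 6826, 5602, 8530, 8059 and 6304 of all genes, against 6867, 5957, 8588, 8277 and 6319. The depth behind a value is unknown, so THBS4 near 0 in subcutaneous cells cannot be told from absence, and the isoform shares rest on the division of shared reads in quantification.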
